A study of Gallus gallus with 6 samples.

Results

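Genes that mark stromal and preadipocyte cells were examined in ICP1, a chicken preadipocyte line that has been immortalized, after transfection of KLF2. The 10 members were taken by symbol: PDGFRA, PDGFRB, THY1, CD34, ENG, NT5E, MCAM, CD44, DLK1 and VIM. Each matched exactly 1 of the 18495 genes in the deposited table, and each overlapped the RefSeq gene of the same symbol in GRCg7b (10 of 10). Of the 10, 9 encode proteins of the cell surface, whereas VIM encodes a cytoskeletal filament.

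The study set 3 libraries from cells given the empty plasmid pCMV-myc, labelled EV, against 3 libraries from cells given pCMV-myc-KLF2, labelled KLF2 overexpression. All 6 were poly(A) RNA libraries taken at 48 h, each from a separate culture well of the same line, so p-values describe the spread between wells and not between birds. Values per library are given below in the order of well numbers 1, 2 and 3. The plasmid's CMV promoter is active in most cell types, and the labels do not give the share of cells that took it up. The series asked what KLF2, a zinc-finger transcription factor, changes in these preadipocytes.

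Stromal progenitors of fat, bone marrow and other connective tissues are recognized by a combination of surface proteins, since no marker is exclusive to them. PDGFRA and PDGFRB are receptor tyrosine kinases for platelet-derived growth factors and are used to find fibroblasts, adipocyte progenitors and, for PDGFRB, pericytes. THY1 (CD90), NT5E (CD73) and ENG (CD105) are the classical positive markers of cultured human mesenchymal stromal cells. CD34 marks adipose stromal cells in fresh human and mouse tissue and is often lost in culture. DLK1, also called preadipocyte factor 1, restrains adipogenesis in mouse preadipocytes.

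Each library held between 13255169 and 14168807 assigned reads and detected between 15469 and 16090 genes. Group was not what set the libraries apart most: over 10893 genes whose mean normalized count reached 20, principal component 1 held 67.1% of the variance. Its scores were 38.5, -5.52 and -2.00 in the EV wells and -42.5, -15.6 and 27.1 in the KLF2 wells, so EV 1 and KLF2 3 lay together at the high end. KLF2 itself had normalized counts of 1093, 675 and 697 in the EV wells and 1052, 1618 and 2412 in the KLF2 wells. The EV 1 value thus exceeded that of KLF2 1. The log2 fold change of KLF2 was 0.998 (SE 0.31; limma unadjusted p = 0.0126, adjusted p = 0.962). In limma 0 of 16765 tested genes passed an adjusted p of 0.05, which is 0% of all genes, and 354 (2.11%) had an unadjusted p under 0.05. edgeR's quasi-likelihood test and DESeq2 also called 0 genes, with 154 of 11860 (1.3%) and 173 of 18492 (0.936%) at an unadjusted p under 0.05.

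The markers spanned the whole range of expression. VIM, CD44, PDGFRA and THY1 were abundant, NT5E, MCAM and PDGFRB were at moderate levels, and DLK1, CD34 and ENG were close to the detection floor. Levels of different genes were compared per length, as RPKM, reads scaled to gene length and library depth. Averaged over all 6 libraries, VIM stood at 3686 RPKM, CD44 at 144, PDGFRA at 67.9 and THY1 at 30.0. NT5E followed at 10.1 RPKM, MCAM at 8.27 and PDGFRB at 3.63. The 3 lowest were DLK1 at 0.110 RPKM, CD34 at 0.0549 and ENG at 0.0283.

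The ranges over the 6 libraries did not overlap between neighbours in this order, except for NT5E and MCAM and among the 3 lowest genes. NT5E ranged from 8.72 to 10.9 RPKM and MCAM from 6.60 to 10.8, so their order is within the spread. The drop from PDGFRB to DLK1 was 33.0-fold. It separated 7 members with a mean normalized count of at least 20 from 3 below that level. In bulk RNA a low level can come from few cells or from little RNA per cell, and these cannot be told apart.

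**Figure D1:**
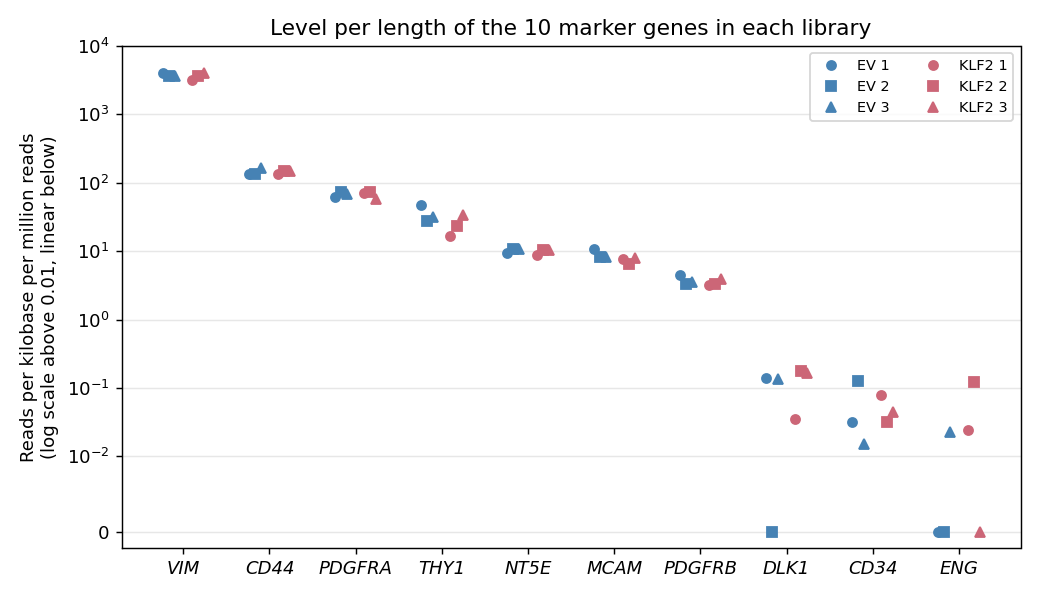
Level per length of each marker gene in RPKM, reads scaled to gene length and library depth (vertical axis, logarithmic above 0.01 and linear below), with 1 point per library, blue for EV and red for KLF2. VIM lies near 3686 on average, and DLK1, CD34 and ENG lie below the other 7 genes in every library.

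None of the 10 members differed between KLF2 and EV libraries by the test. In limma with Benjamini-Hochberg adjustment over all 16765 genes, 0 of 10 passed, against 0% of all genes, and the lowest adjusted p among them was 0.962. None of the 10 reached an unadjusted p of 0.05 (0 of 10, against 2.11% of all genes). In mean log2 value 5 members were lower in KLF2 libraries and 5 higher, against 50.9% of all genes lower. ENG, DLK1 and CD34, close to the detection floor, were all counted as higher. Among the 7 with a mean of at least 20, 5 were lower and 2 higher, against 51.3% of such genes lower. The median log2 fold change was -0.03 over the 10 members and -0.06 over the 7 with a mean of at least 20. Over all genes tested it was -0.00605, and over those 10893 genes it was -0.00632. Fold changes are on the log2(normalized count + 1) scale, which understates changes of low genes. All 10 members passed the filter, which kept a gene if the mean of EV or of KLF2 libraries reached 1. ENG passed it only through the KLF2 group, so its direction is set in part by the filter.

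**Figure D2:**
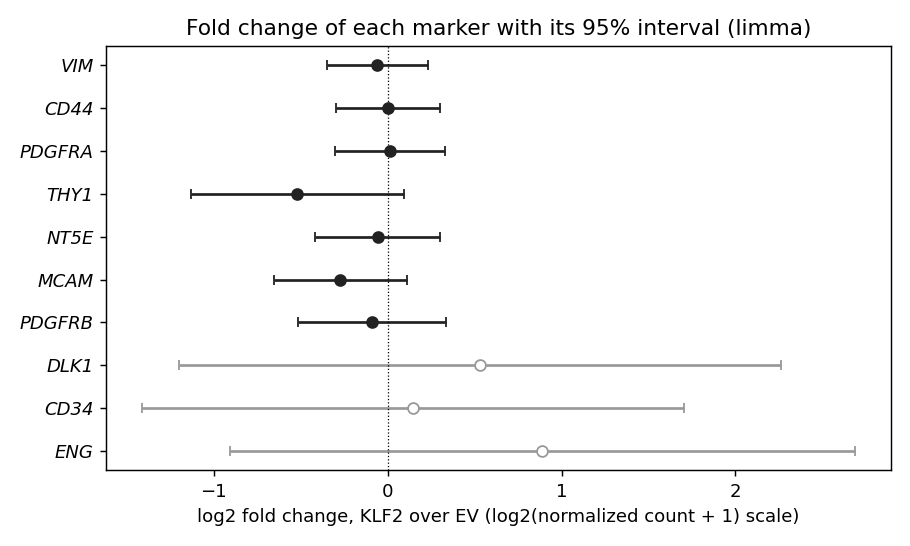
Log2 fold change of each marker, KLF2 over EV (horizontal axis), with its 95% interval from limma. Filled points mark 7 genes whose mean reached 20, open points the 3 below, and each interval includes 0.

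PDGFRA, the main platelet-derived growth factor receptor of adipocyte progenitors, differed little in mean between groups. Its normalized counts were 7161, 8781 and 8142 in the EV wells and 8585, 8782 and 6965 in the KLF2 wells. The 2 lowest values came from EV 1 and KLF2 3, and the groups overlapped. Means were 8028 ± 816 in EV and 8111 ± 997 in KLF2 libraries (SD, n = 3). Its log2 fold change of 0.01 had SE 0.15 (95% interval -0.30 to 0.33; limma adjusted p = 0.993). As a ratio the interval runs from 0.810 to 1.26, so changes beyond those bounds lie outside it. PDGFRA, ENSGALG00010013621, is on chromosome 4 from 64913447 to 64949864 on the minus strand in GRCg7b.

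PDGFRB, its paralogue and a receptor for PDGF-B, had normalized counts of 332, 252 and 269 in the EV wells and 243, 256 and 300.0 in the KLF2 wells. Here the 2 highest values came from EV 1 and KLF2 3, the same libraries that were lowest for PDGFRA, and the groups overlapped. Means were 284 ± 42.3 in EV and 266 ± 30.0 in KLF2 libraries (SD, n = 3), with a log2 fold change of -0.09 (SE 0.20, limma adjusted p = 0.969). PDGFRB, ENSGALG00010016785, lies on chromosome 13 from 12851205 to 12873935 on the plus strand.

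The balance of both receptors leaned to PDGFRA in every library. On the RPKM scale the PDGFRA to PDGFRB ratio was 13.8, 22.3 and 19.3 in the EV wells and 22.6, 21.9 and 14.8 in the KLF2 wells. EV 1 and KLF2 3 had the lowest ratios, and the groups overlapped. The means were 18.4 ± 4.32 in EV and 19.8 ± 4.30 in KLF2 libraries (SD, n = 3; exact two-sided permutation test on log2 ratios, p = 0.6, where 3 against 3 allows no p below 0.1).

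ENG, endoglin, is a co-receptor for ligands of the TGF-beta family. It was barely detected: the EV wells held 0, 0 and 1 reads, and the KLF2 wells held 1, 5 and 0. KLF2 2 alone supplied 5 of the 7 reads. The ratio of the summed reads, 6 in KLF2 against 1 in EV libraries, was 6.09 after depth correction, with an exact 95% interval of 0.739 to 280.1. A count of 0 allows up to 3 reads per library, so presence or absence cannot be told apart in these wells. Intervals and floors of this kind cover counting error only, because reads amplified by PCR are not independent molecules. ENG, ENSGALG00010028084, spans 5558454 to 5568323 on chromosome 17, and 840 bases of that span are shared with FPGS on the other strand. Nothing in the protocols marks strand, so reads from a shared stretch cannot be told apart.

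THY1, a small glycoprotein anchored in the membrane by a lipid, had the lowest unadjusted p of the members and the widest spread of the abundant ones. Its normalized counts were 1660, 1001 and 1122 in the EV wells and 603, 854 and 1228 in the KLF2 wells. KLF2 1 and KLF2 2 lay below all EV libraries, but KLF2 3 exceeded EV 2 and EV 3, so the groups overlapped. Means were 1261 ± 351 in EV and 895 ± 314 in KLF2 libraries (SD, n = 3), which is 29.0% lower in mean. On the log2 scale the fold change, -0.52 with SE 0.27 and a 95% interval of -1.13 to 0.09, did not pass (limma unadjusted p = 0.0872, adjusted p = 0.962). THY1 ranked at 760 of 16765 genes by p, and by exact permutation (two-sided) p was 0.3. For THY1 the authors' deposited table gives -0.49 as log2 fold change, with a p-value of 0.0703 and an adjusted p of 1.00.

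The THY1 estimate moved with the choice of libraries. With EV 1 and KLF2 3 left out, the pair at the high end of principal component 1, the log2 fold change was -0.56 (SE 0.15; limma unadjusted p = 0.000347, adjusted p = 0.108). This fit kept KLF2 1, which had the most extreme score, -42.5, and the lowest THY1 value, 603. It dropped KLF2 3, the highest KLF2 library for THY1 at 1228. KLF2 3 also had the highest count of KLF2 itself, 2412, while that of KLF2 1, 1052, lay below EV 1 at 1093. In that setting 10% of all genes had an unadjusted p under 0.05 (5.88% lower in KLF2), and 4 genes, 0.0234% of all and none of them a member, had an adjusted p under 0.05. Without KLF2 3 alone it was -0.78 (limma unadjusted p = 0.00237, adjusted p = 0.327), where 12.2% of all genes had an unadjusted p under 0.05 (7.93% lower in KLF2). Without KLF2 1 alone it was -0.26, and without EV 1 alone -0.30. The adjusted p of THY1 lay between 0.108 and 1.00 over the 16 alternatives.

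MCAM (CD146), an adhesion protein of pericytes, endothelium and stromal progenitors, was the only member whose groups did not overlap. Its normalized counts were 572, 453 and 433 in the EV wells and 420, 358 and 422 in the KLF2 wells. All EV values lay above all KLF2 values, although EV 3 and KLF2 3 were close at 433 and 422. Means were 486 ± 75.2 in EV and 400.4 ± 36.4 in KLF2 libraries (SD, n = 3), which is 17.6% lower in mean. Its log2 fold change of -0.27 had SE 0.18 (95% interval -0.66 to 0.11; limma adjusted p = 0.962), and by exact permutation (two-sided) p was 0.1, the smallest that 3 against 3 allows. Without overlap and lower in KLF2 were 546 of 16765 genes (3.26%), and 1115 (6.65%) were without overlap in either direction, so 1 of 10 members is not read as a result. Without EV 1, the highest library, the log2 fold change was -0.15.

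**Figure D3:**
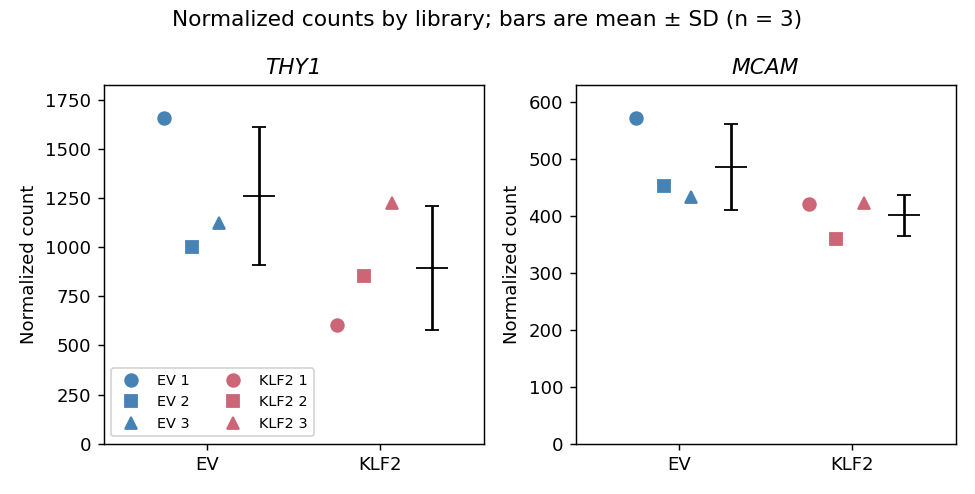
Normalized counts of THY1 and MCAM (vertical axes from 0) in each EV and KLF2 library, with the mean and SD of 3 libraries beside them. THY1 values of KLF2 3 (1228) and EV 3 (1122) cross between groups, while MCAM values do not overlap.

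THY1 and MCAM are neighbours on the microchromosome 24. THY1, ENSGALG00010026023, spans 4228708 to 4233289 and MCAM, ENSGALG00010024116, spans 4266863 to 4276327, both on the plus strand and 33573 bases apart. Only C1QTNF5 lies wholly between them, with a mean of 0 in EV and 1.04 in KLF2 libraries. THY1 lies inside the annotated span of RNF26, which runs on the other strand from 4031110 to 4265650. Whether exons of RNF26 and THY1 overlap was not examined. RNF26 had means of 1073 in EV and 927 in KLF2 libraries, a log2 fold change of -0.19.

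Genes of chromosome 24 varied over the libraries in the same direction as THY1 at the extremes, and so did genes of chromosomes 26 and 17, which hold CD34 and ENG. Of its genes, 111 had a mean that reached 20, and of these 80 were lower in KLF2 libraries and the median log2 fold change was -0.09. Over the whole genome 51.3% of such genes were lower. The median log2 deviation of the 111 genes was 0.20 in EV 1, -0.19 in KLF2 1 and 0.09 in KLF2 3. On chromosome 26 it was 0.22, -0.11 and 0.11 in the same libraries, and on chromosome 17 it was 0.16, -0.08 and 0.04, so the pattern was not particular to chromosome 24. Chromosomes 2, 3 and 4, which hold VIM, NT5E and PDGFRA, went the other way. Their medians were -0.12, -0.13 and -0.07 in EV 1 and 0.09, 0.09 and 0.07 in KLF2 1. In KLF2 3 they were -0.06, -0.05 and -0.05. On chromosomes 5 and 13 the medians in these libraries lay between -0.02 and 0.05. THY1 deviated by 0.69 in EV 1, -0.77 in KLF2 1 and 0.26 in KLF2 3. MCAM deviated by 0.38 in EV 1, -0.06 in KLF2 1 and -0.05 in KLF2 3, with its lowest value of -0.29 in KLF2 2. The part of these shared library differences in the THY1 and MCAM values was not tested.

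**Figure D4:**
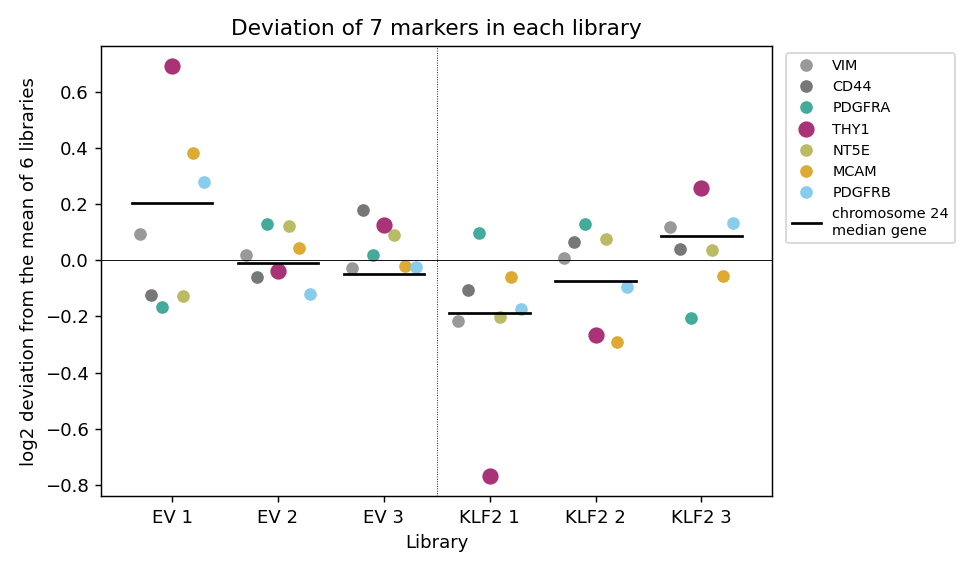
Deviation of each of 7 markers from its own mean over 6 libraries (vertical axis, log2 units) in every library; black bars give the median of 111 genes on chromosome 24. THY1 spans from 0.69 in EV 1 to -0.77 in KLF2 1, while VIM stays between -0.22 and 0.12.

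NT5E is the ecto-enzyme that turns extracellular AMP into adenosine. Its normalized counts were 474, 565 and 552 in the EV wells and 451, 547 and 531 in the KLF2 wells, so the lowest well of each group was number 1 and the groups overlapped. Means were 530 ± 49.0 and 510 ± 51.5 (SD, n = 3), with a log2 fold change of -0.06 (SE 0.17, 95% interval -0.42 to 0.30; limma adjusted p = 0.977). NT5E, ENSGALG00010004224, lies on chromosome 3 from 76663110 to 76687056.

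CD44, the main receptor for the matrix polysaccharide hyaluronan, had the smallest change of all members. Its normalized counts were 10900, 11395 and 13458 in the EV wells and 11036, 12431 and 12217 in the KLF2 wells. The KLF2 values lay within the EV range. The log2 fold change was 0.00125 (SE 0.14, limma adjusted p = 1.00), and as a ratio its 95% interval was 0.814 to 1.23. CD44, ENSGALG00010024974, is on chromosome 5 from 18492437 to 18548227, and its RefSeq gene starts farther upstream, at 18440672.

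CD34, a sialomucin of progenitors and endothelium, was counted with 2, 8 and 1 reads in the EV wells, and with 5, 2 and 3 in the KLF2 wells. EV 2 held most of the reads of its group, and the groups overlapped. The ratio of summed reads, 10 in KLF2 against 11 in EV libraries, was 0.923 with an exact 95% interval of 0.351 to 2.39. DLK1, a membrane protein related to Notch ligands, was counted with 4, 0 and 4 reads in the EV wells, and with 1, 5 and 5 in the KLF2 wells. The ratio of its summed reads, 11 against 8, was 1.40 with an interval of 0.511 to 3.997. For both genes a change was not detectable at this depth. CD34, ENSGALG00010027183, lies on chromosome 26 from 2760033 to 2772836, and DLK1, ENSGALG00010016760, on chromosome 5 from 48448895 to 48459296.

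VIM, vimentin, the intermediate filament protein of mesenchymal cells, took 0.651% to 0.827% of all assigned reads. By normalized count it was the most abundant gene in 5 of 6 libraries. In KLF2 1 the glycolytic enzyme ENO1 stood above it, at 101930 against 88810. Per length it was first in 4 libraries and second to GAPDH in EV 1 and KLF2 3. Normalized counts were 110187, 104680 and 101319 in the EV wells and 88810, 103901 and 111996 in the KLF2 wells. The KLF2 group held both the lowest and the highest value. Means were 105395 ± 4477 and 101569 ± 11767 (SD, n = 3), with a log2 fold change of -0.06 (SE 0.13, 95% interval -0.35 to 0.23; limma adjusted p = 0.969). VIM, ENSGALG00010004281, lies on chromosome 2 from 19703325 to 19711067 on the minus strand and hosts the microRNA gene gga-mir-1661 within its span.

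Of the 7 members whose mean reached 20, 6 varied less within groups than the typical gene. The median within-group SD of the 10893 genes at that level was 0.23 on the log2 scale. It was 0.13 for VIM and CD44, 0.14 for NT5E, 0.17 for PDGFRA, 0.18 for MCAM and PDGFRB, and 0.45 for THY1. THY1 was thus at the percentile 85.3 of such genes. From the lowest to the highest library its level differed 2.75-fold, against 1.23-fold for CD44 and 1.596-fold for MCAM. The comparison of within-group SD was not matched by expression level, and the 7 members had means of 275 or more. With lower genes included, over all 16765 tested, the median within-group SD was larger, at 0.35.

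The members' library patterns differed in size and, for some, in direction. EV 1 and KLF2 3 held the highest values of THY1, PDGFRB and VIM, and the lowest of PDGFRA. For MCAM, NT5E and CD44 this was not so. Centred log2 profiles over the 6 libraries were compared by root mean square difference, which reflects size as well as shape. The root mean square of the profile itself was 0.45 for THY1, 0.14 for PDGFRA, 0.12 for NT5E and 0.11 for CD44. The closest pair was NT5E and CD44 at 0.09, which is close to the size of their own profiles. The farthest pair was PDGFRA and THY1 at 0.56. Among 9169 named genes whose mean reached 20, the nearest profiles to THY1 were those of KIRREL at 0.05, ISYNA1 at 0.05 and SETDB1 at 0.07, against a median distance of 0.48. These 3 genes lie on chromosomes 25, 28 and 25. KIRREL had means of 3318 in EV and 2424 in KLF2 libraries. Nearest to PDGFRA were ATAD2, PDHX and UGGT2, at 0.02 to 0.03. Nearest to PDGFRB were PCIF1, NIF3L1 and FUBP3, at 0.03 each. RHOA, GORASP2 and PSMD7 were nearest to NT5E, and THAP9, C4BPG and PTPA to MCAM. CDR2, CCDC93 and SFSWAP were nearest to CD44, and NDRG3, TPM1 and AIFM1 to VIM. With 6 libraries that share 1 strong component, near neighbours are common and serve as a description.

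Genes that work with these markers were read from 8 lists of ligands, partners and related markers. Of 100 symbols 75 were tested, of which 40 were higher and 35 lower in KLF2 libraries in mean log2 value. Counts of higher and lower genes in each list below are also by mean log2 value, to be read beside 50.9% of all genes lower. In limma 0 of 75 passed, against 0% of all genes, and 2 (2.67%) had an unadjusted p under 0.05, against 2.11% of all genes. These were ENTPD2, with no read in EV libraries, and MME, with an EV mean of 1.304, both near the detection floor. PDGFC, DES, ENTPD2 and CD9 passed the filter only through the KLF2 group, and DLK2 only through the EV group. Their directions are thus set in part by the filter. Groups did not overlap for 3 of 75 (4%), against 6.65% of all genes. The median log2 fold change was 0.01.

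Among ligands of PDGFRA and PDGFRB, PDGFA had the highest level per length. PDGFA had mean normalized counts of 1254 ± 86.0 in EV and 1179 ± 34.96 in KLF2 libraries (SD, n = 3), and its range of 15.9 to 19.1 RPKM lay above those of the other ligands. PDGFB, the ligand that binds both receptors, had means of 36.2 ± 13.8 and 21.6 ± 6.83 (SD, n = 3; log2 fold change -0.69, SE 0.42), with overlap. PDGFD had means of 49.0 and 52.3. PDGFC had no read in EV libraries and a mean of 1.33 in KLF2 libraries, with at most 3 reads in any library. In PDGF receptor signalling 4 of 10 tested genes were higher, 6 lower and 0 past the test. STAT3, GRB2, PTPN11 and PIK3CA, transducers below the receptors, had log2 fold changes of -0.14, 0.05, 0.17 and 0.08.

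Partners of endoglin were far above ENG per length, with TGFB1 at 73.4 to 128 RPKM. TGFB1, the founding ligand of the family, had means of 4614 ± 375 in EV and 3900 ± 1056 in KLF2 libraries, and TGFB3 had 2168 ± 257 and 1671 ± 490 (SD, n = 3). Both overlapped between groups, with log2 fold changes of -0.27 and -0.41. SMAD5 and SMAD3, which carry BMP and TGF-beta signals to the nucleus, had log2 fold changes of 0.18 and -0.08. In all 6 of 11 tested partners were higher, 5 lower and 0 past the test. Of the 15 listed symbols GDF2, BMP10, ACVRL1 and SMAD4 were not matched, so these partners could not be read. The receptors TGFBR1, TGFBR2, TGFBR3 and BMPR2, chosen after their values were seen, had EV means of 1029, 297, 890 and 187.

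Around NT5E, 8 adenosine genes were matched by symbol. SLC29A1, a nucleoside transporter, and ADORA2B, an adenosine receptor, had the highest levels per length of these, at 55.1 to 75.8 and 28.1 to 36.7 RPKM. SLC29A1 had normalized means of 2573 in EV and 2665 in KLF2 libraries, and ADORA2B had 1301 and 1354. ADK, which phosphorylates adenosine, had 430 and 496, and ADA, which deaminates it, had 81.4 and 56.5. Of 8 tested adenosine genes 4 were higher, 4 lower and 0 passed. ADORA2A, another adenosine receptor, was without overlap: 64.1, 53.0 and 70.7 in the EV wells and 35.5, 39.4 and 47.8 in the KLF2 wells (log2 fold change -0.60, SE 0.30; limma unadjusted p = 0.0633). ADORA2A was singled out after its values were seen, as were ENTPD2 and MME, the other partner genes without overlap. ENTPD2 had no read in EV libraries and a mean of 2.02 in KLF2 libraries. MME, an ecto-peptidase, had means of 1.304 and 6.39. Of all genes 3.26% were without overlap and lower in KLF2 libraries, and 3.39% were without overlap and higher. ADORA2A, ENTPD2 and MME are therefore not read as results.

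CD44 links hyaluronan to the cortex through proteins of the ezrin family, and these stood at 56.5 RPKM or more in every library. MSN (moesin) had means of 14331 in EV and 14339 in KLF2 libraries, EZR (ezrin) 6529 and 6929, and RDX (radixin) 4157 and 4507. VCAN, a proteoglycan that binds hyaluronan, had 8816 and 9505. Their log2 fold changes were 0.000665, 0.09, 0.12 and 0.09. In this list 7 of 12 tested genes were higher, 5 lower and 0 passed. ESRP1, an epithelial splicing regulator of CD44 transcripts, was near 0, with an EV mean of 0.986 and no read in KLF2 libraries; it was named after its values were seen.

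DLK1 is shed by ADAM17 and related to Notch ligands. ADAM10, a related sheddase, had means of 2756 and 2983, NOTCH2 had 3649 and 3740, NOTCH1 618 and 540, and HEY1, a Notch target, 563 and 534. Of 7 tested genes 2 were higher, 5 lower and 0 passed. Among the 7 matched filament proteins other than vimentin, the lamin LMNB2 had the highest level per length, with mean normalized counts of 14881 and 16276. The other 6 of the 13 listed symbols, PLEC, LMNA, KRT8, KRT18, KRT19 and INA, were not matched. DES (desmin) had no read in EV libraries and a mean of 2.04 in KLF2 libraries, and was named after its values were seen. NES (nestin), LMNB1 and SYNM had log2 fold changes of -0.31, 0.07 and 0.14, and of 7 tested genes 4 were higher, 3 lower and 0 passed.

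Other mesenchymal surface markers were read in the same way. ITGB1 (CD29), the beta chain of many matrix receptors, had means of 24514 ± 2488 in EV and 24471 ± 1988 in KLF2 libraries (SD, n = 3). CD81, a tetraspanin, had 14019 and 12513, PDPN (podoplanin) 8537 and 10272, and CD151, a further tetraspanin, 6534 and 6581. Of 16 tested genes 11 were higher, 5 lower and 0 passed, with a median log2 fold change of 0.08, against 50.9% of all genes lower. Some of the 16 were near the detection floor. Of those with a mean of at least 20, 7 were higher and 3 lower, with a median of 0.05, against 51.3% of such genes lower.

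**Figure D5:**
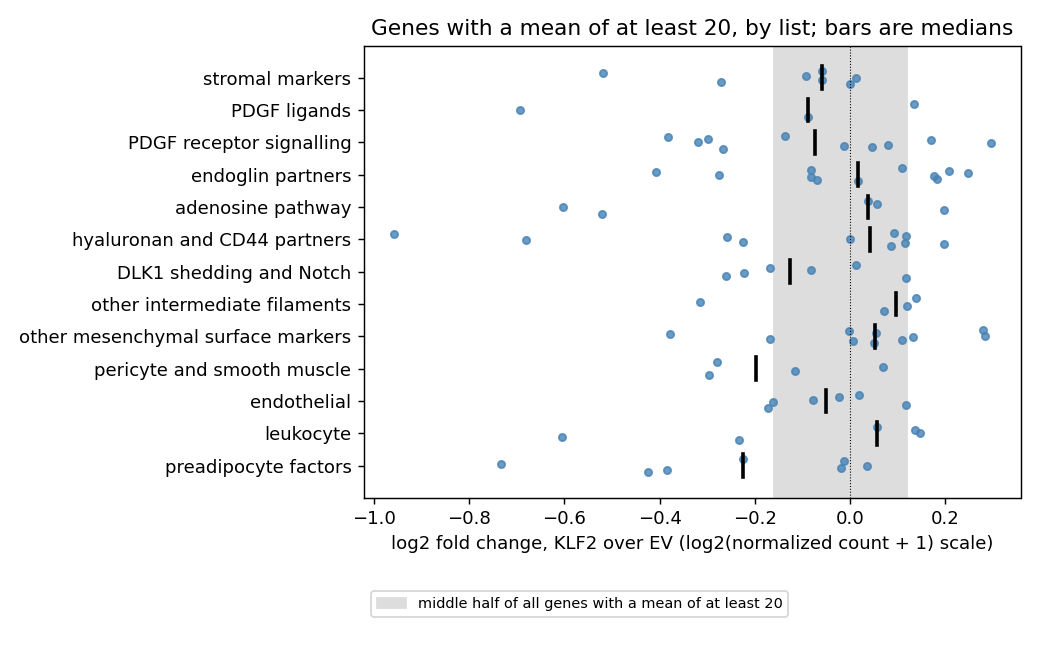
Log2 fold changes, KLF2 over EV (horizontal axis), of genes of each list whose mean normalized count reached 20; black bars are list medians and the grey band is the middle part of all such genes, from the first to the third quartile (-0.16 to 0.12). The median of the 7 stromal markers, -0.06, lies within that band; lists with fewer than 3 such genes are not drawn.

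Markers of other cells were read beside the stromal ones, to check the label. Mature adipocyte genes summed to 3.61 to 4.34 RPKM in EV and 2.16 to 3.81 in KLF2 libraries, and FABP4 was the only one of 6 with a mean of at least 20. LPL and PLIN1 had EV means of 9.21 and 3.35. ADIPOQ had 4.97 in EV and 1.00 in KLF2 libraries without overlap (limma unadjusted p = 0.0300, adjusted p = 0.962). Its KLF2 values, 1.02, 1.04 and 0.955, were below the floor of 3 reads. Of all genes 3.26% were without overlap and lower in KLF2 libraries, and 2.11% had an unadjusted p under 0.05 in limma. ADIPOQ is therefore not read as a result. Of the 7 skeletal muscle symbols 3 were matched, MYOD1, PAX7 and MYF6, and they summed to at most 1.15 RPKM. MYF5, MYOG, CKM and ACTA1 were not matched, so their levels could not be read. Also not matched were CD4, CD8A, CD79B and ITGAM of the leukocyte list. The same holds for SOX17 of the endothelial, CLDN4 of the epithelial and DGAT2 of the adipocyte list. Endothelial genes summed to 23.3 to 27.4 RPKM in EV and 20.5 to 26.8 in KLF2 libraries, and leukocyte genes to 26.4 to 37.0 and 27.3 to 36.7. Most of each sum came from 1 transcription factor: ERG at 14.1 to 19.3 RPKM and SPI1 at 21.1 to 31.1. CLDN5, at 2.58 to 6.19 RPKM, was the next endothelial gene, CDH5 reached at most 2.10, and PTPRC, CD3E and CD74 at most 2.43. Epithelial genes summed to 11.9 to 17.1 and 12.6 to 16.4 RPKM, nearly all of it from the factor GRHL2 at 11.7 to 16.5 RPKM. KRT5, KRT14 and CLDN1 each stayed at or under 0.247 RPKM. In none of these lists did a gene pass the test, and in each the sums of both groups overlapped. Of the 8 pericyte and smooth muscle genes 4 were matched, and their summed level was 39.2 to 56.8 RPKM in EV and 37.3 to 43.3 in KLF2 libraries. MYH11, a smooth muscle myosin, and CSPG4 (NG2) had EV means of 1018 and 1181, and TAGLN and ACTA2, contractile proteins, had 523 and 200.2.

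Transcription factors of preadipocytes were the last list. All 8 were tested, 7 were lower and 1 higher in mean log2 value, against 50.9% of all genes lower, and 0 passed. The median log2 fold change was -0.30. TCF21, with means of 1.02 in EV and 0 in KLF2 libraries, passed the filter only through the EV group. Its direction is thus set in part by the filter. EBF2, also counted as lower, had a log2 fold change of -0.02. By mean normalized count EBF2 and TWIST1, both counted as lower, were not lower in KLF2 libraries. EBF2 had 42.0 in EV and 42.1 in KLF2 libraries, and TWIST1 had 264.1 and 264.7. PRRX1, a factor of limb and stromal mesenchyme, had 569, 323 and 305 in the EV wells and 136, 258 and 346 in the KLF2 wells. As for THY1, EV 1 was highest and KLF2 1 lowest, and KLF2 3 overlapped the EV group (log2 fold change -0.73, SE 0.36; limma unadjusted p = 0.0725). CEBPB, an early adipogenic factor, had 7380, 3409 and 3733 in the EV wells and 2138, 3076 and 6434 in the KLF2 wells. Its 2 highest values were those of EV 1 and KLF2 3. TWIST1 and PPARG had log2 fold changes of -0.01 and 0.04.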

How the data were processed

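Poly(A) RNA of 6 wells of ICP1 cells, 3 EV and 3 KLF2, was sequenced. The submitters' processing notes name the build GRCg7b and, as tools, featureCounts 1.5.0-p3, StringTie 1.3.3b, HISAT2 2.0.5 and fastp. The normalizing and testing program was not given in the sources read. For every member the deposited log2 fold change and p-value matched those of DESeq2 on the recovered reads, for THY1 -0.494 and 0.0703. The deposited values thus add no separate evidence to that fit. The signal deposited for each gene and library is a normalized count. In units of the library's lowest value above 0, 100% of values were whole (tolerance 1e-06), which gave the reads behind the totals, the RPKM and the count tests. Per the file headers there are also columns for gene length, log2 fold change and p-value, the last also adjusted.

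The test was robust limma-trend (limma 3.58.1, R 4.3.3) on log2(normalized count + 1), over all 6 libraries and the genes whose mean reached 1 in EV or KLF2. It was two-sided, and p was adjusted by Benjamini-Hochberg at a threshold of 0.05. Intervals are at 95%. edgeR 4.0.16 and DESeq2 1.42.0 on the recovered reads were alternatives. On counts simulated from the real means, with 3 runs of 200 changed genes among 16765, limma recovered 12% at a 1.5-fold change, 62% at 2-fold and 96% at 4-fold, and called 21 unchanged genes. The changed genes all had a mean of at least 20. Simulated counts were independent between genes and libraries, with spread set by expression level alone. They lack the library differences that many genes share in the real data, so these rates may not hold for it. No library was a copy of another (chi-square per gene at least 6.91 for each pair).

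The members, the lists and the pair of libraries left out together were chosen with earlier results of these data known. Named were the members, KLF2, up to 4 genes per list with the highest mean, and the 3 genes nearest to each member in profile, by a fixed rule. Other genes, among them chromosomal neighbours and genes given to compare levels, were named after their values were seen. Lists were matched by exact symbol, and 25 of the 100 partner symbols were not tested.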

Additional observations from a re-analysis of the deposited data

How the results depend on the processing

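Under 16 alternatives the count of members past the threshold was 0. The count of all genes past it was 0, except with EV 1 and KLF2 3 left out together, where it was 4. A replicate block left both counts at 0 (THY1 -0.52, limma unadjusted p = 0.106). Same-numbered libraries did not pair: correlations of their deviations were -0.600, 0.144 and -0.511. Of 150 fold changes of members, 129 kept sign and side, 21 turned sign and 0 passed; the cause was not tested. THY1 and MCAM kept their sign in all 16 alternatives. The MCAM groups did not overlap, so leaving libraries out could not turn its sign, and its kept sign is not read as a result. ENG kept its sign where it had a value, but it passed the main filter only through the KLF2 group. Its kept sign is therefore not read as a result. CD44 was -0.00374 in edgeR with TMM, -0.000720 with RLE, -0.00283 in DESeq2, -0.0593 with quantile normalization and -0.0804 without EV 1 and KLF2 3. PDGFRA was -0.0278 with quantile normalization, and CD34 -0.14 in DESeq2. Leaving out each library alone gave PDGFRA -0.0677 to 0.118, PDGFRB -0.180 to 0.0254, NT5E -0.137 to 0.0274, CD44 -0.0601 to 0.0919, VIM -0.133 to 0.0344, CD34 -0.33 to 0.79 and DLK1 -0.23 to 1.05. A filter of a mean of at least 10 and edgeR's own filter left no value for CD34, DLK1 and ENG, and ENG also had none without KLF2 2. Low reads limit what can be said of these 3 genes.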
